A study of Mus musculus with 6 samples.

Results

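The genes described here encode the SR proteins, the SF3a and SF3b subunits, the U2AF subunits and the heterogeneous nuclear ribonucleoproteins (hnRNPs) of the mouse. They were chosen by name from the deposited gene table, as names beginning with Srsf, Sf3a, Sf3b, U2af or Hnrnp, with names ending in a pseudogene mark left out. The rule found 43 of 55401 genes, namely 11 SR proteins, 9 SF3 subunits, 3 U2AF genes and 20 hnRNPs. It left out 2 Hnrnpa1 pseudogenes.

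Bone marrow RNA came from 6 mice with HoxA9/Meis1 leukaemia, a model named for its homeobox genes, and all were secondary recipients. 3 libraries (mice 62, 63 and 87) hold the lymphoid leukaemic stem cells (labelled Lym+, here Lym) of recipients of that population. The other 3 (mice 56, 57 and 91) hold c-Kit-positive progenitors without lineage markers (Lin-) of recipients of Lin- leukaemic stem cells. All 6 mice carry the HoxA9/Meis1 leukaemia. The labels used here do not give the strain, the age, the vector or the donor of each graft, and grafts of a common origin are possible. Each mouse gave 1 library, and the spread within a group is one between mice. Pax5, which commits cells to the B lineage, had at most 0.953 normalized counts in any library, and Cd79a, a B-cell receptor chain, at most 4.48. Of 12 B-lymphoid markers 3 had enough reads to be tested, 2 of them higher and 1 lower in Lym (log2 fold change -0.53). Rag2, of the recombinase of antigen receptor genes, was at 361, 120 and 27.6 in mice 62, 63 and 87 and at 19.4, 38.7 and 13.4 in mice 56, 57 and 91, and Il7r, the interleukin 7 receptor, at 424, 82.8 and 14.3 and at 2.65, 3.52 and 4.13. DESeq2 called 4 of the 12 higher in Lym, namely Rag2, Il7r, Ebf1 and Dntt, where 0.642% of all genes were called in either direction. The markers were thus uneven, with low or no Pax5 and Cd79a, and lower in mouse 87 than in mouse 62.

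Splicing removes introns from pre-mRNA. SR proteins carry RNA recognition motifs and a tail rich in arginine and serine, bind exonic enhancers and help to recruit the spliceosome. U2AF reads the 3′ splice site, with its large subunit on the polypyrimidine tract and its small subunit on the terminal AG. SF3a and SF3b are parts of the U2 small nuclear ribonucleoprotein (snRNP), which holds the branch point. hnRNPs coat nascent transcripts, and many of them act as splicing silencers. Genes of this machinery, SF3B1, SRSF2 and U2AF1 among them, are mutated in human myeloid neoplasms. The counts used here are per gene. They hold neither mutations nor splice isoforms.

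Libraries held 18537700 to 22634286 reads assigned to genes. A floor of 3 reads came to 2.64 to 3.36 normalized counts, which covers counting error only. Values are normalized counts, which the authors obtained from reads by means of a size factor for each library. Fold changes are differences of log2(normalized count + 2), Lym minus Lin-, with standard errors. Where no other tool is named, p-values are from limma, adjusted by Benjamini-Hochberg across 14273 genes that reached 10 normalized counts in 3 or more libraries. In the whole table limma put 0 genes past an adjusted p of 0.05 (0%), where 1459 had an unadjusted p under 0.05. The authors' deposited table called 101 genes (0.32%). In the median of the set, given below, the Lym library of mouse 87 lay inside the Lin- range and those of Lym mice 62 and 63 below it. Without mouse 87 limma called 1366 genes (9.57%). The counts and medians that mouse 87 moves are also given without it, in most cases together after the results.

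Most of these genes were abundant and slightly lower in Lym, with 1 exception in size, Hnrnpll. Their spread between mice was about that of other abundant genes. Of the 43 genes, 41 passed the filter on low values, and 40 of the 43 had at least 500 normalized counts in every library. Among the 41, 33 were lower and 8 higher in Lym by the sign of the fold change (80.5% lower), beside 51.3% of all 14273 genes tested and 49.5% of the 6404 genes with a mean of at least 500. Their median log2 fold change was -0.13, with a range of -1.15 to 0.10, beside a median of -0.01 over all genes tested. 33 of the 41 lay within 0.25 of 0 on the log2 scale, as did 51.9% of all genes tested, less abundant ones included.

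**Figure D1:**
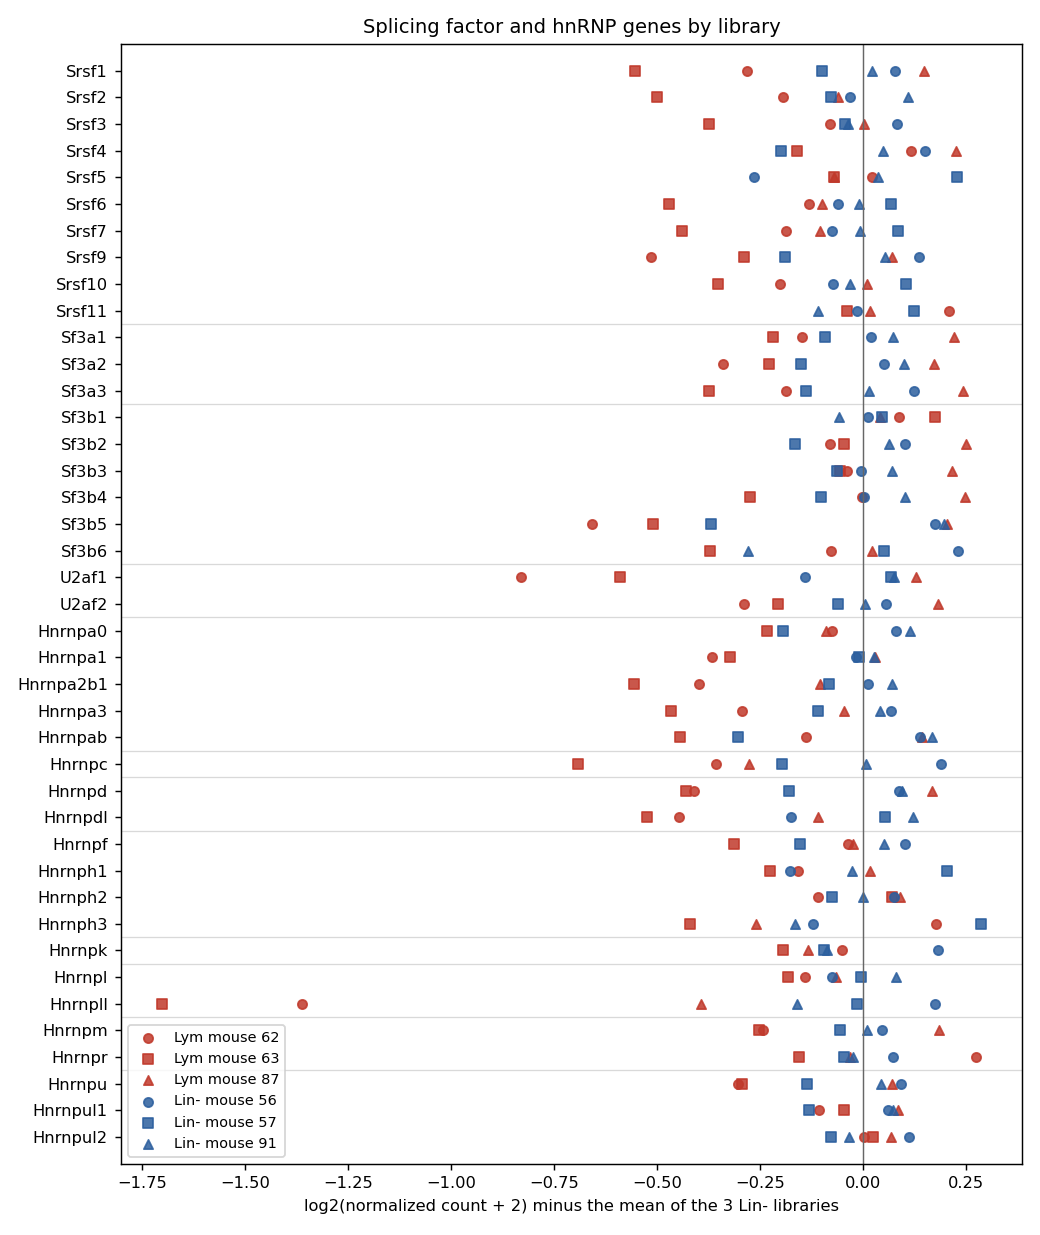
Each row is 1 of the 41 tested genes, grouped by family, and each point is 1 library, placed by its log2(normalized count + 2) minus the mean of the 3 Lin- libraries. Red symbols are Lym mice 62, 63 and 87 and blue symbols Lin- mice 56, 57 and 91. Most red circles and squares (mice 62 and 63) lie left of 0, red triangles (mouse 87) lie on both sides, and Hnrnpll reaches farthest to the left.

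Most of the lower values came from 2 of the 3 Lym mice. Against the mean of the Lin- libraries, 34 of the 41 genes were lower in Lym mouse 62 and 38 in Lym mouse 63, but 15 in Lym mouse 87. Over all genes tested the same shares were 49.8%, 49.8% and 48.0%. The median deviation of the 41 genes from the Lin- mean was -0.15, -0.29 and 0.03 on the log2 scale in the Lym libraries (62, 63, 87), and 0.06, -0.08 and 0.04 in the Lin- libraries (56, 57, 91). Mice 62 and 63 were thus below all 3 Lin- libraries in this median, and mouse 87 was inside the Lin- range.

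For 23 of the 41 genes Lym mice 62 and 63 were both below every Lin- library, a pattern that 21.7% of all genes tested had. Lym mouse 63 held the lowest of the 6 values for 25 genes, Lym mouse 62 for 8 and Lym mouse 87 for 0. Lym mouse 87 held the highest value for 16 genes, lay inside the Lin- range for 18 and was below every Lin- library for 7. As CPM, reads scaled to the library total, the 43 genes summed to 12448, 11790 and 14916 in the Lym libraries (62, 63, 87) against 15339, 14197 and 14696 in the Lin- libraries (56, 57, 91). In bulk RNA, fewer cells of a type and less RNA per cell cannot be told apart.

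Genes of cell division were in sum also lowest in Lym mice 62 and 63, but mouse 87 stood higher in them than in the set. Their median deviation from the Lin- mean in mouse 87 was 0.31 on the log2 scale, above every Lin- library. That of the set was 0.03, inside the Lin- range. Of 20 proliferation genes, all tested, 17 were lower in Lym by the sign of the fold change, beside 51.3% of all genes tested. Their median log2 fold change was -0.26. Without mouse 87 all 20 were lower, with a median of -0.49, where 7299 of all 14273 genes tested were lower. Then 7 were called lower by limma and 11 by DESeq2, where 4.09% and 2.93% of all genes were called on that side. They summed to 4538, 4202 and 7550 CPM in the Lym libraries (62, 63, 87) against 6287, 4868 and 6285 CPM in the Lin- libraries (56, 57, 91). Mice 62 and 63 were lowest and mouse 87 was highest. Mouse 62 also had 1 ng of input RNA where the others had 2 ng. The part of proliferation and of RNA input in the splicing factor values was not tested.

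No gene of the set passed an adjusted p of 0.05 in limma or in edgeR. 4 had an unadjusted limma p under 0.05, all lower in Lym (Hnrnpll, Hnrnpc, Hnrnpa2b1 and Hnrnpdl), where 4.27% of all genes tested had one on that side and 5.96% on the other. edgeR gave 4, where 10.1% of all genes tested had an unadjusted edgeR p under 0.05 in either direction. DESeq2 gave 4, and the share of all genes for that count was not computed. The groups did not overlap for 5 of the 41 (Hnrnpll, Hnrnpc, Hnrnpa2b1, Srsf6 and Srsf7), all lower in Lym, where 7.08% of all genes tested were apart in that direction and 8.49% in the other. In the set these were 9.76% and 12.2% of the 41, all on the lower side and 0 on the higher side. These are few genes, and the shares of all genes on both sides stand beside them. They are not read as a result about the set. The set is described below by its members' own values.

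For 4 of the 5 genes whose groups did not overlap, the 250 bases before the RefSeq transcript start (GRCm38.p6) are shown because the fold changes of these 4 have the same sign. No window was at hand for Hnrnpll. Searched on both strands were CCAAT (the NF-Y box), GGGCGG (the GC box of Sp factors), CCGGAAG (an ETS core), TGACGT (a core of CREB and ATF sites), TATAAA (the TATA box), CACGTG (an E-box) and the palindromic CGCG element. No 2 of them overlapped in these windows. Capitals mark the matches, and each sequence is written 5′ to 3′ on the strand of its gene.
Hnrnpc (chr14:52104022-52104271, minus strand): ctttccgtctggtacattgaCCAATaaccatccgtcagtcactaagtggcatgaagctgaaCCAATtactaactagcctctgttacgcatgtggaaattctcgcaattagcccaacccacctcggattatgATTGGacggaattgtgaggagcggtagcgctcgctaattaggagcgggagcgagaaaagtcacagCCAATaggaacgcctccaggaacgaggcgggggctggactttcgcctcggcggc
Hnrnpa2b1 (chr6:51469895-51470144, minus strand): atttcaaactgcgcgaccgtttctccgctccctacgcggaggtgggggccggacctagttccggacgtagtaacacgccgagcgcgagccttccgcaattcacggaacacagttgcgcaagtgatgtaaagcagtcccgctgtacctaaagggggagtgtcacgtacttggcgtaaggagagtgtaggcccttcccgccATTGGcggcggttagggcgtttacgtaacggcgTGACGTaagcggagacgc
Srsf6 (chr2:162931258-162931507, plus strand): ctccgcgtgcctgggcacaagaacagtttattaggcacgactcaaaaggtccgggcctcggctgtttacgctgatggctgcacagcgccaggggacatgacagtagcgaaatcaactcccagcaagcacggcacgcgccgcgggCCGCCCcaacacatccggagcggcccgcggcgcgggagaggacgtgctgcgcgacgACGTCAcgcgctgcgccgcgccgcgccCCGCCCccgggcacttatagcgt
Srsf7 (chr17:80207306-80207555, minus strand): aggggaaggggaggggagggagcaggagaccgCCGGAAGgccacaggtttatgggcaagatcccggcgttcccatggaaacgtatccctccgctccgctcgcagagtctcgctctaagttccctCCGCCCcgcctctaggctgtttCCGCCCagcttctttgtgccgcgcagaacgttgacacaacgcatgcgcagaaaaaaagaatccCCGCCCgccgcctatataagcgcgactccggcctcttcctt

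The Hnrnpc window held 4 CCAAT matches, that of Hnrnpa2b1 1 CCAAT and 1 TGACGT match, that of Srsf6 2 GC boxes and 1 TGACGT match, and that of Srsf7 3 GC boxes and 1 ETS core. No motif was common to the 4 windows. 38 of the 43 genes had at least 1 window of this length, and the motifs were counted per gene over all its windows. GGGCGG was in 76.3% of the 38 (63.7% of 9128 genes tested with a window, 35.4% of 27025 genes with one), CCAAT in 50% (41% and 37.5%), CCGGAAG in 31.6% (17.1% and 7.83%) and TGACGT in 21.1% (12.1% and 7.29%). TATAAA was in 10.5% (7.57% and 14.3%), CACGTG in 7.89% (10.1% and 6.86%) and the CGCG element in 0 of the 38 (1.01% and 0.448%). The median ratio of observed to expected CpG was 0.977 in these windows of the set, 0.734 in genes tested and 0.378 in all genes with a window. A match is a description of letters, not of a bound site.

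Hnrnpll, which encodes hnRNP L-like, was the gene of the set with the lowest values in Lym relative to Lin-. hnRNP L-like is an RNA-binding paralogue of hnRNP L, known from T cells as the regulator that silences the variable exons of the CD45 gene Ptprc, and from B-lineage cells for a role in the switch to plasma cells. Hnrnpll (ENSMUSG00000024095.15, chromosome 17, 80029487 to 80062334, minus strand, GRCm38) stood at 886, 699 and 1737 normalized counts in the Lym libraries (62, 63, 87) against 2577, 2258 and 2042 in the Lin- libraries (56, 57, 91). The groups did not overlap, with mouse 87 the highest of the Lym mice and the nearest to Lin-.

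The means of Hnrnpll were 1107 ± 553 in Lym and 2292 ± 269 in Lin- (SD, n = 3 each), a ratio of 2.07 in favour of Lin-. Its log2 fold change was -1.15 ± 0.30 (limma unadjusted p = 0.00426, adjusted p = 0.420). In the authors' deposited table, Hnrnpll was called lower in Lym at an adjusted p of 0.0466, 1 of 20 such genes (0.0633% of 31604 with a p). DESeq2 on the recovered reads gave an adjusted p of 0.0202, 1 of 35 genes called lower in Lym (0.111%, and 0.642% in either direction). Library weights, estimated from the same values, were lowest for Lym mouse 87 (0.361). With them limma called Hnrnpll, Hnrnpc, Hnrnpdl and Hnrnpa2b1 lower in Lym (1.64% of all genes tested). All 3 rest on the same 6 libraries, and the authors' table and this run both come from DESeq2.

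That DESeq2 call did not hold without any 1 of 5 mice. The DESeq2 adjusted p was 0.340 without Lym mouse 62, 0.344 without Lym mouse 63, 0.438 without Lin- mouse 56, 0.168 without Lin- mouse 57 and 0.170 without Lin- mouse 91. Without Lym mouse 87 the limma adjusted p was 0.00172 and the DESeq2 adjusted p 1.95e-15, and the log2 fold change grew to -1.53. The sign stayed negative in limma whichever mouse was left out, from -1.53 to -0.88. Leaving out the Lym mouse nearest to the Lin- mice, or giving it a low weight, favours calls.

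The paralogue Hnrnpl, which encodes a protein binding CA-rich RNA, was far more abundant and differed less. Hnrnpl (chromosome 7, 28808541 to 28822266) was at 8132, 7905 and 8569 in the Lym libraries (62, 63, 87) against 8515, 8939 and 9482 in the Lin- libraries (56, 57, 91). The groups overlapped (-0.13 ± 0.10 on the log2 scale, limma adjusted p = 0.658). Within a library, reads of Hnrnpll divided by those of Hnrnpl came to 0.109, 0.0885 and 0.203 in Lym and to 0.303, 0.253 and 0.215 in Lin-. The ratio was thus lowest in mice 62 and 63, while mouse 87 was close below Lin- mouse 91. It compares reads without regard to the different lengths of the genes.

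**Figure D2:**
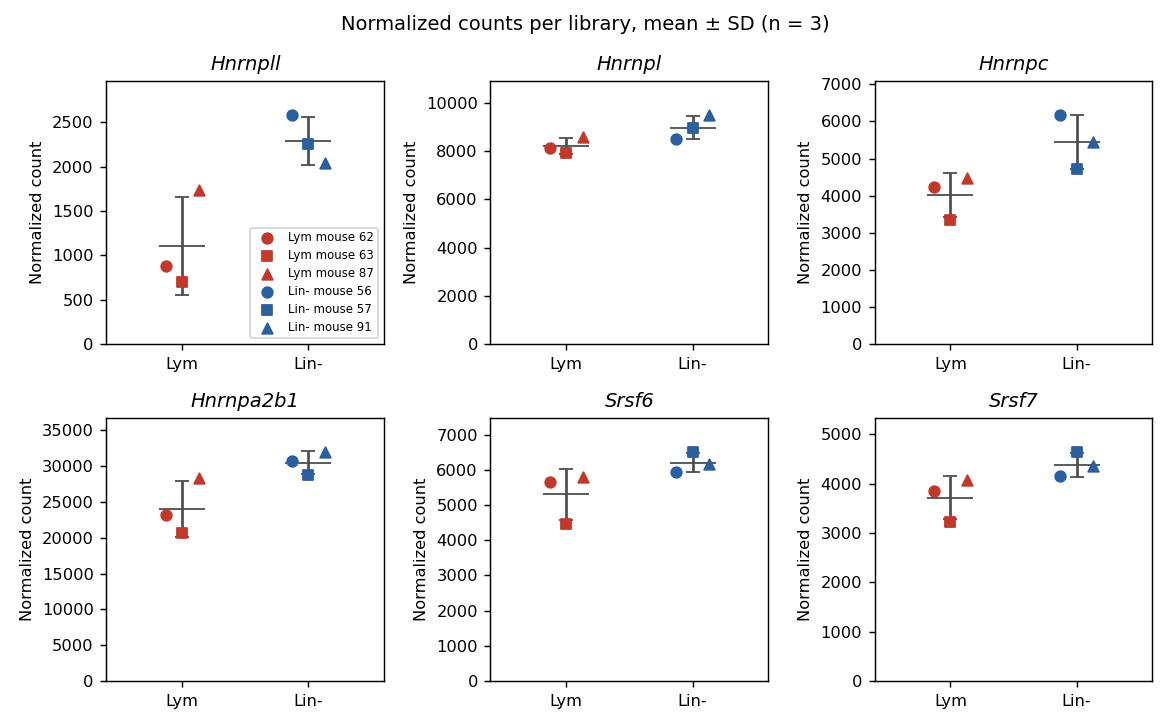
Normalized counts (vertical axes, starting at 0) of Hnrnpll, its paralogue Hnrnpl and the 4 other genes whose groups did not overlap, with 1 symbol per mouse and bars for mean ± SD (n = 3). Hnrnpll is at 699 to 1737 in Lym and at 2042 to 2577 in Lin-, and in each panel the highest Lym symbol is that of mouse 87 (red triangle).

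The genes around Hnrnpll did not share its size of difference. 10 other tested genes lay within 500 kb of it. Atl2, on its downstream side, had a log2 fold change of 0.02 ± 0.14, and Srsf7, 138 kb away, one of -0.24 ± 0.12. Gemin6, a subunit of the SMN complex that assembles snRNPs, was at 163, 207 and 198 in the Lym libraries (62, 63, 87) against 406, 246 and 248 in the Lin- libraries (56, 57, 91) (log2 fold change -0.62 ± 0.26, limma adjusted p = 0.468). Sos1, on the same side as Gemin6, was higher in Lym by 0.30 ± 0.13 (limma adjusted p = 0.484).

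Hnrnpc had the next lowest unadjusted p. It encodes the nuclear hnRNP C proteins, which bind runs of U and compete with U2AF for cryptic 3′ splice sites. Hnrnpc (chromosome 14, 52073377 to 52104028) was at 4226, 3348 and 4464 in the Lym libraries (62, 63, 87) against 6165, 4720 and 5438 in the Lin- libraries (56, 57, 91). All 3 Lym mice, mouse 87 included, were below all 3 Lin- mice. Its log2 fold change was -0.44 ± 0.15 (limma unadjusted p = 0.0177, adjusted p = 0.446).

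All 5 genes of the hnRNP A/B group were lower in Lym, with log2 fold changes of -0.35 to -0.13 and a median of -0.22. These proteins have paired RNA recognition motifs and a glycine-rich tail, and some of them favour exon skipping. Hnrnpa2b1 (chromosome 6, 51460932 to 51469894), whose product also binds RNA carrying N6-methyladenosine, was at 23124, 20725 and 28318 in the Lym libraries (62, 63, 87) against 30733, 28796 and 31973 in the Lin- libraries (56, 57, 91). The groups were apart, by a narrow gap between Lym mouse 87 and Lin- mouse 57. Its log2 fold change was -0.35 ± 0.14 (limma unadjusted p = 0.0333, adjusted p = 0.462).

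Hnrnpab was the most abundant gene of the set per length, at a mean of 6585 normalized counts per kb of deposited gene length over the 6 libraries. It was at 17279, 13975 and 21008 normalized counts in the Lym libraries (62, 63, 87) against 20920, 15391 and 21337 in the Lin- libraries (56, 57, 91). The groups overlapped widely (log2 fold change -0.15 ± 0.18, limma adjusted p = 0.793). Hnrnpa1, a general splicing silencer, was at 10100 ± 1578 in Lym and 11675 ± 191 in Lin-, Hnrnpa3 at 9545 ± 1413 and 11441 ± 748, and Hnrnpa0 at 4959 ± 294 and 5453.5 ± 618 (SD, n = 3 each). For Hnrnpa1 and Hnrnpa3 Lym mice 62 and 63 were below all Lin- mice, and mouse 87 was within the Lin- range or above it. Hnrnpa1 has near-identical pseudogenes, and how shared reads were counted is not given in the sources used here. The 2 named pseudogenes left out had 6 to 40 reads per library.

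Hnrnpd and Hnrnpdl, which encode AUF1 and its relative JKTBP and lie 54.6 kb apart on chromosome 5, were both lower in Lym mice 62 and 63. hnRNP D binds AU-rich elements and takes part in the decay of mRNAs that carry them. Hnrnpdl (100033577 to 100039664) was at 4264, 4045 and 5388 in the Lym libraries (62, 63, 87) against 5149, 6037 and 6327 in the Lin- libraries (56, 57, 91). Lym mouse 87 overlapped Lin- mouse 56, and the log2 fold change was -0.36 ± 0.14 (limma unadjusted p = 0.0344, adjusted p = 0.464). Hnrnpd (99955935 to 99978938) was at 8375, 8265 and 12488 against 11814, 9818 and 11876, with mouse 87 above every Lin- mouse (log2 fold change -0.22 ± 0.18, limma adjusted p = 0.657).

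The remaining hnRNPs differed little. In the F/H group, whose proteins bind G-rich runs, Hnrnph1 was at 11378, 10854 and 12844 in the Lym libraries (62, 63, 87) against 11228, 14621 and 12449 in the Lin- libraries (56, 57, 91) (log2 fold change -0.12 ± 0.13, limma adjusted p = 0.754). Hnrnpf was at 2462, 2033 and 2486 against 2712, 2271 and 2619 (-0.12 ± 0.13 on the log2 scale, limma adjusted p = 0.748). The groups overlapped in both. Hnrnph2 and Hnrnph3, with log2 fold changes of 0.02 and -0.17, completed this group.

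Hnrnpk, whose KH-domain protein binds C-rich RNA and DNA, was at 14011, 12692 and 13221 in the Lym libraries (62, 63, 87) against 16475, 13586 and 13660 in the Lin- libraries (56, 57, 91) (log2 fold change -0.13 ± 0.12, limma adjusted p = 0.713). Lym mouse 62 lay inside the Lin- range. Hnrnpm was at 13988, 13877 and 18804 against 17072, 15922 and 16660, so that Lym mice held both the lowest and the highest values (-0.10 ± 0.14 on the log2 scale, limma adjusted p = 0.807). Hnrnpr, a relative of Syncrip, had a log2 fold change of 0.03 ± 0.13.

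Hnrnpu encodes SAF-A, a scaffold protein of nuclear RNA and chromatin. It was at 11027, 11089 and 14275 in the Lym libraries (62, 63, 87) against 14503, 12387 and 14009 in the Lin- libraries (56, 57, 91) (log2 fold change -0.18 ± 0.14, limma adjusted p = 0.655). Hnrnpul1 was at 10889, 11370 and 12443 against 12233, 10710 and 12332, and its log2 fold change of -0.02 changed sign with the scaling (0.00397 with the upper quartile). Hnrnpul2 had a log2 fold change of 0.03. The groups overlapped for all 3.

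Among the SR proteins 8 of 10 tested genes were lower in Lym, with a median log2 fold change of -0.21 and a range of -0.25 to 0.06. None had an unadjusted limma p under 0.05. In Lym mouse 63 the median deviation of the 10 from the Lin- mean was -0.36, in Lym mouse 62 -0.16 and in Lym mouse 87 0.01, on the log2 scale. Srsf2, which binds exonic enhancers and also acts in transcription elongation, was the most abundant of them per length at 2320 normalized counts per kb. Srsf2 (chromosome 11, 116849901 to 116853094) was at 6489, 5247 and 7120 in the Lym libraries (62, 63, 87) against 7270, 7034 and 8008 in the Lin- libraries (56, 57, 91), with mouse 87 inside the Lin- range (log2 fold change -0.25 ± 0.14, limma adjusted p = 0.541).

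Srsf6 and Srsf7 were the SR genes whose groups did not overlap. Srsf6 (chromosome 2, 162931528 to 162937121), an SR protein with paired RNA recognition motifs, was at 5668, 4477 and 5798 in the Lym libraries (62, 63, 87) against 5957.5, 6512 and 6172 in the Lin- libraries (56, 57, 91). Its log2 fold change was -0.23 ± 0.13 (limma adjusted p = 0.542). Srsf7 (chromosome 17, 80200080 to 80207307), which carries a zinc knuckle and links splicing to mRNA export, was at 3842, 3228 and 4073 against 4152.5, 4641 and 4355. Its log2 fold change was -0.24 ± 0.12 (limma adjusted p = 0.524). In both genes Lym mouse 63 was lowest and the gap between the groups was small.

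Srsf1, known as a human oncoprotein when in excess, was at 776 ± 194 in Lym and 893 ± 55.1 in Lin-, and Srsf3 at 3036 ± 401.5 and 3351 ± 166 (SD, n = 3 each). Srsf9 was at 1924 ± 400 and 2257.5 ± 257, and Srsf10, which acts as a splicing repressor when dephosphorylated, at 2167 ± 276 and 2448 ± 159. Srsf5, at 6238 ± 232 and 6473 ± 1089, varied more among the Lin- mice than between groups. Srsf4 (0.06) and Srsf11 (0.06) had positive log2 fold changes. Srsf12 was not tested: it had 12 reads in Lym mouse 62 and 0 in the other 5 libraries, where the floor of 3 reads allows up to 2.64 to 3.36 normalized counts.

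The small U2AF subunit was lower in Lym mice 62 and 63 and not in mouse 87. U2af1 (chromosome 17, 31647081 to 31658892) was at 801, 947 and 1561 normalized counts in the Lym libraries (62, 63, 87) against 1293, 1494 and 1502 in the Lin- libraries (56, 57, 91). Mouse 87 held the highest value of all 6, and the log2 fold change was -0.43 ± 0.23 (limma adjusted p = 0.541). Without mouse 87 it was -0.71 (limma adjusted p = 0.0184). U2af2, the large subunit, was at 3800, 4022 and 5260 against 4824, 4450 and 4653 (log2 fold change -0.10 ± 0.14, limma adjusted p = 0.806). U2af1l4, a short relative of U2af1 known as U2AF26, was too low to be tested, with 3, 8 and 6 reads in Lym and 3, 32 and 24 in Lin-.

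SF3a and SF3b subunits differed little. In SF3a all 3 genes were lower in Lym by sign, with log2 fold changes of -0.13 to -0.05. Their median of -0.11 turned to 0.03 without Lym mouse 63 and stayed negative in the other alternatives run. Sf3a3 was at 2386.5, 2097 and 3218 in the Lym libraries (62, 63, 87) against 2961, 2469 and 2746 in the Lin- libraries (56, 57, 91) (-0.11 ± 0.17, limma adjusted p = 0.840). Sf3a2 was at 1804.5, 1950 and 2575.5 against 2367, 2058.5 and 2448 (-0.13 ± 0.16, limma adjusted p = 0.782). In both genes mouse 87 was above every Lin- mouse, while mice 62 and 63 were below them.

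In SF3b 3 genes were higher and 3 lower by sign, with a median log2 fold change of 0.02. That median was -0.000823 with TMM scaling and -0.11 with library weights. It was -0.10 without Lym mouse 87, -0.05 without Lin- mouse 57 and positive in the other alternatives run. Sf3b1, which contacts the branch point and is the subunit most often mutated in human myelodysplastic syndromes, was at 14112, 14987 and 13654 in the Lym libraries (62, 63, 87) against 13389, 13704 and 12757 in the Lin- libraries (56, 57, 91). Its log2 fold change of 0.10 ± 0.10 was the highest of the set (limma adjusted p = 0.739), and the groups overlapped. Sf3b2, the most abundant SF3b gene per length, was at 13729, 14058 and 17271 against 15590, 12962 and 15165 (0.04 ± 0.13, limma adjusted p = 0.927), and its sign was negative without Lym mouse 87 (-0.06). Sf3b5, the smallest subunit, was at 387, 429 and 704 against 690, 473 and 700 (-0.32 ± 0.26, limma adjusted p = 0.671). Sf3b3 (0.04), Sf3b4 (-0.01) and Sf3b6 (-0.14) lay close to 0 on the log2 scale.

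**Figure D3:**
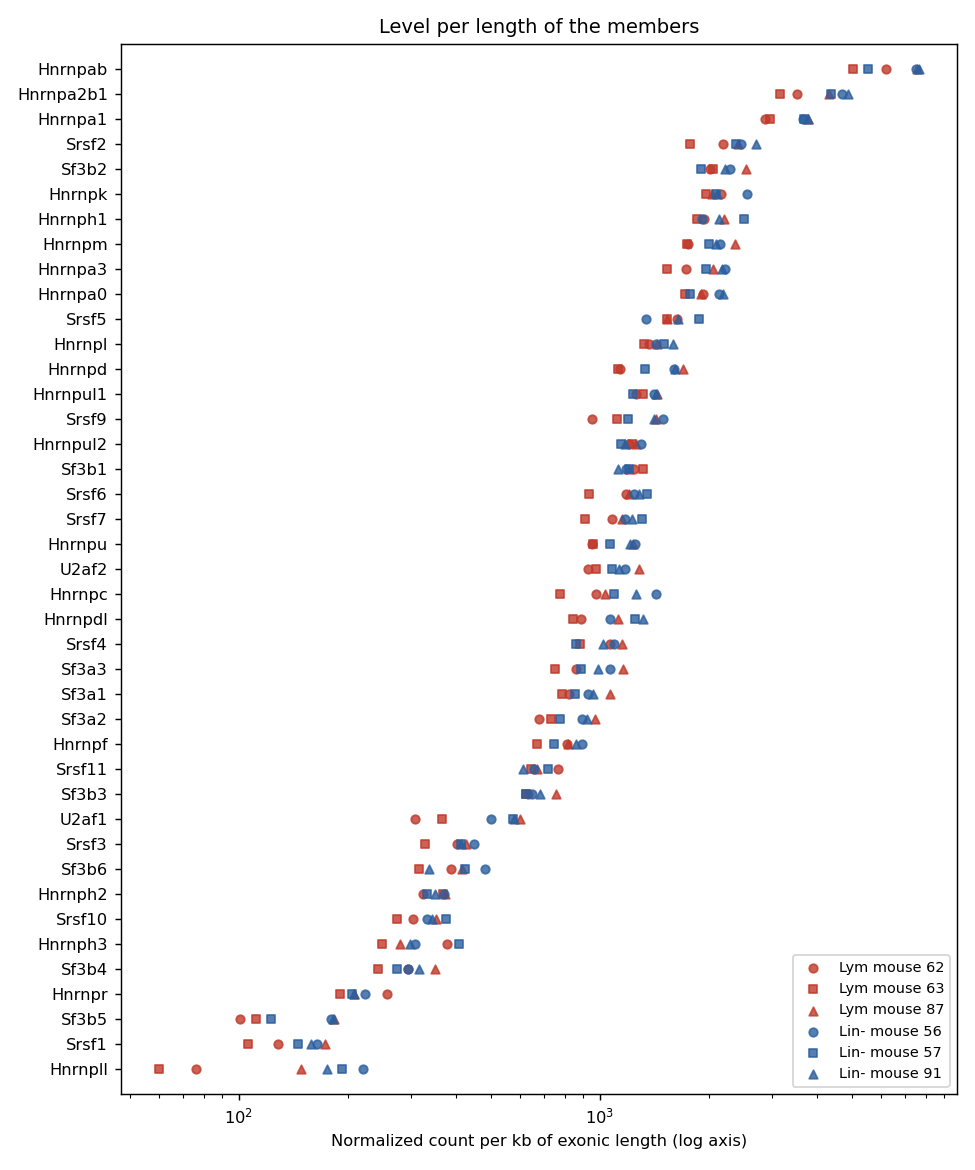
The 41 tested genes ordered by their mean level, with 1 point per library at its normalized count per kb of deposited gene length (log axis). Hnrnpab is highest at a mean of 6585 per kb, and Hnrnpll, at 145.6 per kb, is lowest, with Lym mice 62 and 63 (red circle and square) farthest to the left.

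Levels of the set spanned a wide range per length. The median was 1094 normalized counts per kb over the 41 tested genes and 104 over all genes tested, and all 41 were above the latter. After Hnrnpab came Hnrnpa2b1 (4143 per kb), Hnrnpa1 (3453), Srsf2 (2320), Sf3b2 (2169) and Hnrnpk (2156). At the low end were Sf3b5 (147), Srsf1 (146) and Hnrnpll (145.6). The deposited length is 1 value per gene, and it was not adjusted for which isoforms were expressed.

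The spread between mice was about that of other abundant genes. The median coefficient of variation of the 41 genes was 14.8% among Lym mice and 8.12% among Lin- mice. Genes with a mean of at least 500 had 14.4% and 9.21%, and all genes tested 22.3% and 15.1%. The members are spread over 17 chromosomes, with 5 each on chromosomes 4, 11 and 17. Hnrnpa0 and Hnrnpk are 263 kb apart on chromosome 13, and Srsf10 and Hnrnpr 441 kb apart on chromosome 4.

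Other splicing genes did not all share the sign of the set. Among the U1 snRNP and Sm proteins, the ring that all major spliceosomal snRNPs but U6 carry, 11 of 15 tested genes were lower in Lym, with a median log2 fold change of -0.23. 2 had an unadjusted limma p under 0.05, both lower, where 4.27% of all genes tested had one on that side. Snrpd1 was at 858, 822.5 and 1459 in the Lym libraries (62, 63, 87) against 1994, 1500 and 1602 in the Lin- libraries (56, 57, 91) (log2 fold change -0.74 ± 0.23, limma adjusted p = 0.426). Its groups did not overlap. Snrpd3 was at 1082, 944 and 1693 against 1822, 1559 and 1768 (-0.51 ± 0.21, limma adjusted p = 0.467), and mouse 87 overlapped Lin-.

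Of 14 other U2 snRNP and branch point factors, 11 were lower in Lym, with a median of -0.04. Snrpb2, the U2B″ protein, was at 1058, 992.5 and 1101.5 in the Lym libraries (62, 63, 87) against 1437, 1395 and 1143 in the Lin- libraries (56, 57, 91) (log2 fold change -0.33 ± 0.14, limma adjusted p = 0.472). In the U4/U6.U5 tri-snRNP list 12 of 18 were lower, with a median of -0.10. Prpf38a, needed for activation of the spliceosome, was at 572, 511 and 766 against 1013, 829 and 881 (-0.57 ± 0.18, limma adjusted p = 0.440), without overlap. The Prp19 complex and late helicases had 7 of 18 lower and a median of 0.04, with Bcas2 the lowest p (-0.33 ± 0.14, limma adjusted p = 0.484). Of 10 hnRNPs that bear other names, such as Ptbp1 and Raly, 5 were lower and 5 higher in Lym, with a median of -0.03 (-0.01 without mouse 87) and no call by any tool, beside 17 of 20 lower among the hnRNPs of the set.

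Lists of splicing regulators had more genes on the other side. Of 10 tested SR kinases and related enzymes, 8 were higher in Lym, with a median log2 fold change of 0.12. The groups overlapped in the median deviation from the Lin- mean, which was 0.1632 in Lin- mouse 57, 0.1545 in Lym mouse 63 and 0.02616 in Lym mouse 87. Srpk2, a kinase of SR proteins, was at 2460.5, 1985 and 1549 in the Lym libraries (62, 63, 87) against 1482, 1894 and 1499 in the Lin- libraries (56, 57, 91) (0.28 ± 0.19, not past the threshold in limma). Of 21 SR-related proteins, 14 were higher, with a median of 0.10. Acin1, a component that joins the exon junction complex, was at 12700, 11697 and 13252 against 10233, 10970 and 10692 (0.24 ± 0.10, limma adjusted p = 0.488), without overlap.

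The list of the exon junction complex and nonsense-mediated decay, the pathway that destroys transcripts with early stop codons, had 9 of 15 genes higher and a median of 0.15. Its 3 genes with an unadjusted limma p under 0.05 were all higher in Lym, where 5.96% of all genes tested had one on that side. The decay endonuclease Smg6 was at 3995, 3323 and 2615.5 against 2223, 2437 and 2282.5 (0.50 ± 0.16, limma adjusted p = 0.439). The kinase Smg1 was at 12845.5, 12099.5 and 10128.5 against 8787, 9439.5 and 9330, and Upf3b at 2965, 2399 and 2355 against 2058, 2065 and 1909 (0.34 ± 0.12 and 0.35 ± 0.13 on the log2 scale). The groups were apart in each, with mouse 87 nearest to Lin-.

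Among 21 other alternative splicing regulators 13 were higher in Lym (median 0.06), and among 11 minor spliceosome genes 5 (median -0.02). Rbm5 was at 8061, 7242 and 5774 in the Lym libraries (62, 63, 87) against 4997, 6479 and 5169.5 in the Lin- libraries (56, 57, 91) (log2 fold change 0.34 ± 0.16, limma adjusted p = 0.505). Msi2, an RNA-binding protein of stem cells, was at 3935, 1866.5 and 753 against 617, 1258 and 700 (1.11 ± 0.53, limma adjusted p = 0.509), and only mice 62 and 63 were above all Lin- mice. Rnpc3, which binds the minor spliceosomal RNAs, differed by -0.25 ± 0.15 on the log2 scale (limma adjusted p = 0.577). With all 6 libraries weighted alike, no gene of these splicing lists passed an adjusted p of 0.05 in limma, edgeR, DESeq2 or the authors' deposited table. With library weights limma called Snrpd1, Snrpd3 and Prpf38a lower and Smg6 higher in Lym. Of all 14273 genes tested it then called 234 lower and 426 higher.

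**Figure D4:**
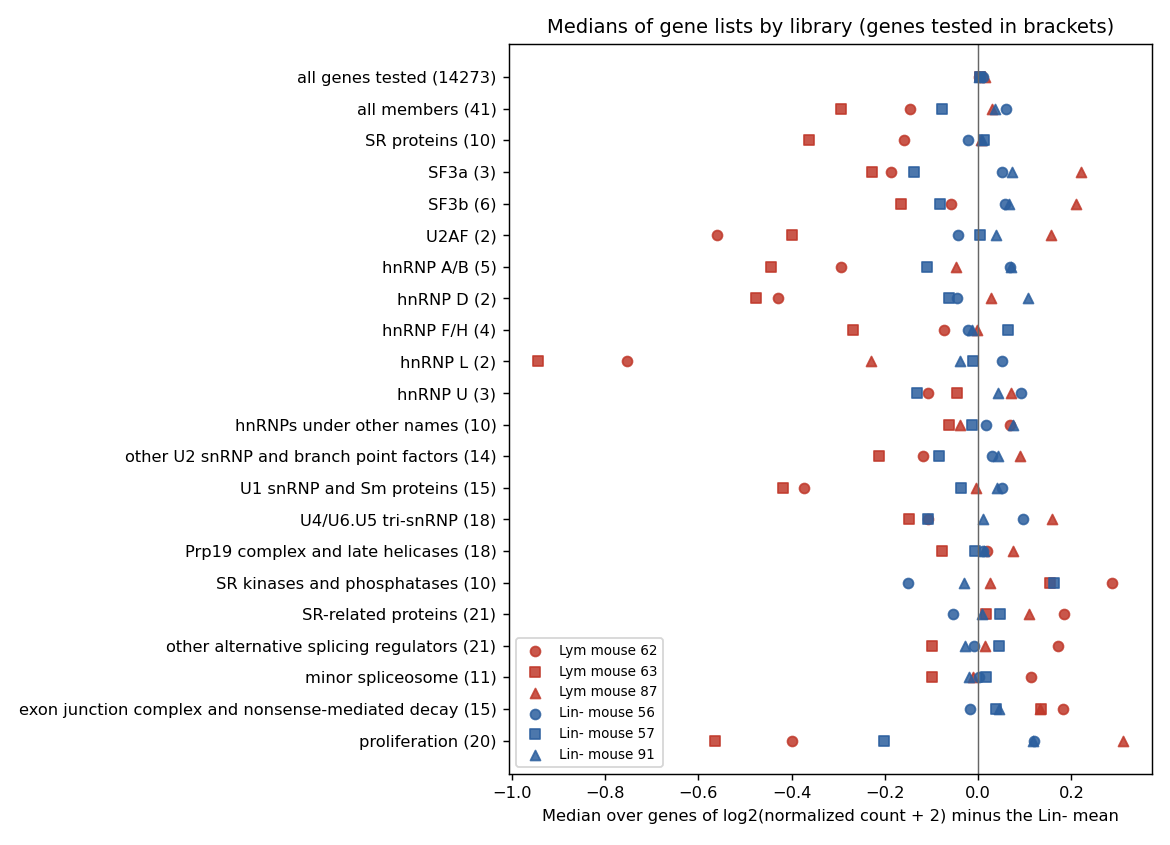
Each row is a list of genes with the number tested in brackets, and each point is the median over that list, in 1 library, of log2(normalized count + 2) minus the mean of the 3 Lin- libraries. Red circles and squares (Lym mice 62 and 63) lie left of 0 for the SR, U2AF, hnRNP A/B and D, Sm protein and proliferation lists. They lie right of 0 for SR kinases and nonsense-mediated decay. For SR kinases Lin- mouse 57 (0.1632) lies to the right of Lym mouse 63 (0.1545). The red triangle (mouse 87) is at 0.03 for all members and at 0.31 for proliferation.

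Markers of other cells gave these values beside the set. Of 12 B-lymphoid markers 3 passed the filter, 2 higher and 1 lower in Lym. The list summed to 73.9, 14.2 and 15.6 CPM in the Lym libraries (62, 63, 87) and 4.95 to 22.1 CPM in Lin-. DESeq2 called 4 of the 12 higher in Lym (0.642% of all genes were called), and 1 was called higher in the authors' deposited table (0.32%). The myeloid list had 9 of 12 tested, 7 of them lower in Lym, and came to 3402 to 3736 CPM in Lym and 4220 to 7690 CPM in Lin-. For 3 of the 9 the groups did not overlap, all lower in Lym, where 7.08% of all genes tested were apart on that side. DESeq2 called 1 of the 12 lower in Lym (0.111% of all genes were called on that side), and the authors' deposited table called 0. Erythroid markers were at or near 0 (0.0446 to 0.884 CPM), with the globin genes at 0 reads in all libraries. T and NK markers reached 13.1 CPM in Lym mouse 62 and at most 3.08 CPM elsewhere. Stromal and endothelial markers came to 330 to 449.5 CPM in Lym and 252 to 304 CPM in Lin-, most of it Pecam1, which blood cells also express. The part of other cells in the splicing factor values was not tested.

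2 measures of RNA quality were not alike across the libraries. Nuclear long RNAs, Malat1 above all, summed to 5674, 4936 and 3772 CPM in the Lym libraries (62, 63, 87) against 3073, 5023 and 3749 CPM in the Lin- libraries (56, 57, 91). Mitochondrially encoded transcripts came to 5873.5, 5599 and 4729.5 CPM against 3666, 8799 and 8235 CPM. Lym mouse 62 was highest in the first and Lin- mouse 57 in the second. Their part in the splicing factor values was not tested.

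Without Lym mouse 87 more of the set was called. limma then put 4 genes past an adjusted p of 0.05, all lower in Lym, where 4.09% of all genes tested were called on that side. They were Hnrnpll, Hnrnpa2b1 (-0.48, adjusted p = 0.0358), Hnrnpdl (-0.49, adjusted p = 0.0372) and U2af1. DESeq2 without that mouse called 8 of the 43, all lower in Lym, where 2.93% of 29112 genes were called on that side. Besides these 4 they were Hnrnpa1, Hnrnpa3, Hnrnpc and Hnrnpd. With 2 Lym mice left, 37 of the 41 genes were lower in Lym and the median log2 fold change was -0.25. By family, the median was then -0.29 for SR proteins, -0.28 for SF3a, -0.10 for SF3b, -0.48 for U2AF, -0.34 for the hnRNP A/B group and -0.45 for the hnRNP D genes.

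The other splicing lists moved too when Lym mouse 87 was left out. Of all 14273 genes tested limma then called 782 higher and 584 lower in Lym (9.57% in all). DESeq2 called 2.93% of 29112 genes lower. The median log2 fold change was then -0.37 for U1 snRNP and Sm proteins, where limma called Snrpd1 (adjusted p = 0.00690), Snrpd3 (adjusted p = 0.0124) and Snrpf (adjusted p = 0.0203) lower, and DESeq2 called 6 genes. It was -0.14 for the other U2 factors, with Snrpa1 called lower by limma, and -0.13 for the tri-snRNP list, with Prpf38a called lower. In the list of the exon junction complex and nonsense-mediated decay limma called Smg6 and Smg1 higher and Magoh, a core subunit of that complex, lower, with a median of 0.16. The median of the Prp19 list turned to -0.02 and that of the minor spliceosome, where Zcrb1 was called lower, to 0.01. It was 0.20 for SR kinases and 0.03 for other regulators, where Msi2 was called higher.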

How the data were processed

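Per the labels' protocols, a stranded kit took 2 ng of RNA per library (Lym mouse 62 only 1 ng), with 12 PCR cycles and reads of 38 bases. The submitters' processing notes name GRCm38.p6 as build and, as tools, DESeq2, featureCounts 1.6.4, STAR 2.6.1d, Trim Galore 0.6.4 and bcl2fastq. The annotation release, the use of strand and the treatment of reads shared by near-identical genes are not given in the sources used here. The deposited library values are a normalized signal, for which the authors scaled the counts of each library by its size factor. All values up to 10000 were whole multiples of their library's step (100% within 0.01), so reads were recovered. The deposited log2 fold change of the authors is positive where Lin- is higher, and its sign was turned. A Wald score and a p-value of the authors' own test stand beside it, per the file headers. The deposited standard errors and other columns were not used for tests.

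limma 3.58.1 (R 4.3.3, trend option) was fitted to log2(normalized count + 2). The fixed design named edgeR for raw counts and limma for normalized values. edgeR 4.0.16 (TMM), limma-voom and DESeq2 1.42.0 were run on the recovered reads, DESeq2 over 31604 genes with a read, and each tool was tested on simulated data. Tables and figures used Python 3.11.15, pandas 2.3.3 and matplotlib 3.10.9. Gene positions are those deposited. All 43 matched GENCODE M21 by versioned identifier and position. Genes with full values were, in each group, the most abundant per length, that with the lowest p, any called gene and any without overlap. In other lists those with the lowest p were named. Exceptions chosen after seeing their values are the neighbours of Hnrnpll, the ratio to Hnrnpl, Sf3b1, Hnrnpa1, Hnrnpa3, Hnrnpa0, Srsf1, Srsf3, Srsf5, Srsf9, Srsf10 and the genes of other lists called without mouse 87. The members and lists were chosen with earlier results of these data known. 1 gene of the list of hnRNPs that bear other names is not reported here.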

Additional observations from a re-analysis of the deposited data

How the results depend on the processing

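Alternatives changed the tool, the scaling, the filter, the pseudocount, the library weights and the mice. The count of called genes of the set, 0 in limma, was 1 with DESeq2 (Hnrnpll) and 4 with library weights, which gave Lym mouse 87 the lowest weight (0.361). Leaving out 1 mouse gave 0 to 4. Calls over all genes were 0 in limma, 203 with DESeq2, 5 without a filter, 1 with a pseudocount of 10 and 660 with library weights, and 0 to 1366 when 1 mouse was left out. Genes of the set higher in Lym numbered 8, 4 with library weights and 4 to 11 without 1 mouse, and genes without overlap 5, then 5 to 24 without 1 mouse. Alternatives added after seeing the data left out each mouse in DESeq2 and edgeR. Called members ranged from 0 to 8 and calls over all genes from 44 to 2047 in DESeq2, and from 0 to 4 and 0 to 1222 in edgeR, the highest each time without Lym mouse 87.

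The median log2 fold change of the set (-0.13) stayed below 0 in all alternatives run. Of the 22 named genes, signs turned for 4. Hnrnpul1 was 0.00397 with upper-quartile scaling and -0.0888 to 0.0196 without 1 mouse, Sf3b2 -0.0342 with library weights and -0.0642 to 0.10 without 1 mouse, Sf3a3 -0.28 to 0.0282 and Hnrnpab -0.30 to 0.00319 without 1 mouse. The cause was not tested. No paired analysis was possible because the mice carry no shared numbers. Srsf12 and U2af1l4 were under the filter on low values at 18537700 to 22634286 reads a library.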
